A study of Callithrix jacchus with 6 samples.

Results

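The CPNE4 SHISA6 neurons are a group of excitatory cells in single-cell RNA libraries from the hippocampi of aged common marmosets (Callithrix jacchus). They were chosen by measured transcripts. A cell barcode was kept if it held at least 3000 unique molecular identifiers (UMIs, one per captured RNA molecule) and UMIs of both CPNE4 and SHISA6. It also had to show at least 4 of the 6 genes CPNE4, SHISA6, UNC5C, TSPAN18, NRP1 and USH1C, at most 1 UMI of GAD1 and GAD2 together, and at most 1 UMI of LAMA3 and TRHR together. The rule kept 3849 of 46582 barcodes, or 8.26%. The study set 3 control libraries, from hippocampi of animals given oxygen for 6 h, against 3 libraries from hippocampi after 6 h of sevoflurane, an inhaled general anaesthetic. All 6 came from tissue that was digested with collagenase, frozen as a cell suspension, thawed and loaded on the 10x Genomics 3' v3.1 kit. The labels do not say whether the libraries of a group came from separate animals, so the p-values measure the spread between these libraries, which may be technical.

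Hippocampal pyramidal neurons are the glutamatergic projection cells of the CA fields. Their wiring is laid down by guidance receptors: UNC5C and DCC bind netrins, and NRP1 is a co-receptor for class 3 semaphorins and VEGF. SHISA6 is an auxiliary protein of AMPA-type glutamate receptors, which carry fast excitatory transmission. CPNE4 belongs to the copines, proteins that bind membranes when calcium rises, TSPAN18 is a tetraspanin, and USH1C (harmonin) is a PDZ scaffold best known from hair cells of the inner ear. GAD1 and GAD2 make the inhibitory transmitter GABA, so the limit on them removed most interneurons.

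The rule kept 656, 844 and 791 cells in control replicates 1 to 3 and 949, 495 and 114 cells in sevoflurane replicates 1 to 3. As a share of all barcodes this was 7.97%, 11.8% and 9.69% in the controls and 11.1%, 6.75% and 1.60% after sevoflurane. The exact Clopper-Pearson 95% interval of the last value ran from 1.33% to 1.92% and covers counting error only. Sevoflurane replicate 3 lay far below the other 5 libraries, which overlapped between the groups. The low count there did not come with a shallow library: the 6 libraries held 7103 to 8577 barcodes and 41164947 to 47886816 UMIs each, and the cells that met the rule in sevoflurane replicate 3 had a median of 11894 UMIs against 10237 to 15326 elsewhere. Any 2 libraries shared 13 to 27 barcodes, and only 2 of the shared barcodes met the rule in both libraries.

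**Figure D1:**
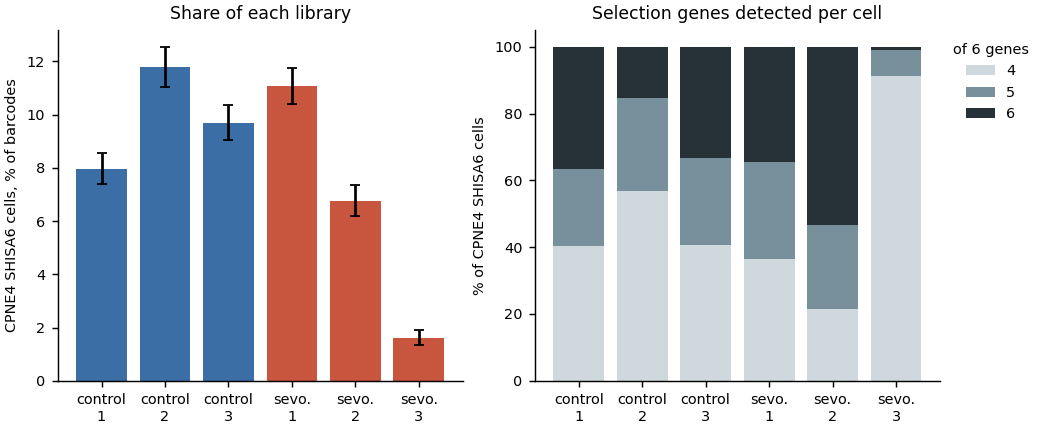
Share of barcodes that met the rule in each library, in percent with exact 95% Clopper-Pearson intervals, and, on the second axis, how many of the 6 selection genes those cells showed. Sevoflurane replicate 3 holds 1.60%, and nearly all of its cells sit at the threshold of 4 genes.

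Sevoflurane replicate 3 stood apart in which cells it contributed as well. Of its 114 cells, 104 had exactly 4 of the 6 selection genes and only 8.77% had 5 or more, against 43.1% to 78.4% in the other libraries. Across 14441 genes, the log2 profile of its cells correlated with those of the other libraries at 0.900 to 0.917, while those 5 correlated with each other at 0.963 to 0.980 (Pearson's r across genes, a description). The sevoflurane comparison was therefore made with all 6 libraries, since all hold at least 50 cells, and again with the 5 libraries other than sevoflurane replicate 3, which hold 3735 of the cells.

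The levels of the selection genes chose the cells and are given as a description, in CPM, a gene's UMIs summed over these cells in a library and scaled to a total of 1000000. SHISA6 stood at 1789, 1757 and 1890 CPM in the controls and at 1726, 1772 and 283 CPM after sevoflurane. UNC5C stood at 1583, 1345 and 1814 CPM in the controls and at 1830, 2280 and 622 CPM after sevoflurane. CPNE4 stood at 674 to 810 CPM in the 5 libraries and 388 CPM in sevoflurane replicate 3. NRP1 reached 741, 604, 893, 758 and 957 CPM in the 5 libraries and 51.6 CPM in sevoflurane replicate 3. TSPAN18 lay between 59.6 and 111 CPM in the 5 libraries and at 5.81 CPM in sevoflurane replicate 3. USH1C was the most uneven among the 5, with 58.7 CPM in control replicate 2 against 192 to 315 CPM in the other 4. In sevoflurane replicate 3 all 6 genes but USH1C were thus below every other library.

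The thresholds cut through a continuous range. Cells with 4 of the 6 genes, just inside, numbered 265, 480 and 321 in the controls and 346, 107 and 104 after sevoflurane. Barcodes with 3 of the 6 that met all other conditions, just outside, numbered 201, 245 and 165 in the controls and 145, 90 and 412 after sevoflurane. Sevoflurane replicate 3 was the one library with more barcodes just outside than inside. Cells with 2 UMIs of LAMA3 and TRHR were left out by 1 molecule, and they numbered 92, 55, 116, 90, 73 and 6 in the same order of libraries. All barcodes left out by this limit alone, with 2 or more such UMIs, numbered 475, 169, 425, 424, 589 and 21. In sevoflurane replicate 2 that was more than the 495 cells kept, so the shares per library depend on this limit.

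Some markers of glutamatergic neurons were present in every library. The 10 listed summed to 895 to 1056 CPM in these cells and to 255 to 394 CPM in GABAergic cells. In the other glutamatergic cells, which this list helped to choose, they summed to 1024 to 1178 CPM. Of the list, NEUROD1, NEUROD2, NEUROD6 and SLC17A6 stood at 14.4 CPM or less in every sub-cluster described below. SLC17A7, the vesicular glutamate transporter of cortical and hippocampal excitatory cells, stood at 220, 196 and 218 CPM in the controls and at 222, 262 and 148 CPM after sevoflurane. CAMK2A, the calcium-dependent kinase of excitatory synapses, stood at 394 to 514 CPM in all 6. For the label's hippocampal part, single genes set sevoflurane replicate 3 apart from the other 5 libraries. ZBTB20, a transcription factor that marks the hippocampus, stood at 532, 478 and 592 CPM in the controls and at 563, 657 and 37.0 CPM after sevoflurane. RORB, a transcription factor of neocortical projection neurons, ran the other way: it was at 335 CPM in sevoflurane replicate 3, against at most 24.5 CPM in the others. The 11 genes of the cortical list, RORB among them, summed to 1953 CPM there and to 1729 to 2385 CPM in the other 5. The sum of that list thus did not set sevoflurane replicate 3 apart, but similar sums can be made up of different genes. HS3ST4, also on the list, stood at 2168 CPM in sub-cluster 1 described below, where RORB was at 5.70 CPM. In sub-cluster 4, which held 76.3% of the cells of sevoflurane replicate 3, HS3ST4 and RORB stood at 470 and 229 CPM. The 10 genes of the hippocampal pyramidal list summed to 2344 CPM in sevoflurane replicate 3 and to 3562 to 4096 CPM in the other 5. That library was also lowest in the other glutamatergic cells defined below, at 2339 CPM against 2848 to 3251 CPM. The same held in GABAergic cells (at least 3 UMIs of GAD1 and GAD2), at 2566 CPM against 3172 to 3498 CPM. The fall in this list was thus not particular to the chosen cells.

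Genes listed as markers of field CA3 were more abundant in these cells than in the other glutamatergic cells of the same libraries. The comparison set was 11015 barcodes with at least 3000 UMIs, at most 1 GAD1 or GAD2 UMI and at least 3 of 10 glutamatergic markers, outside the rule. The 11 CA3 genes, which include the selection gene TSPAN18, summed to 1159 to 1526 CPM in the 5 libraries against 677 to 845 CPM in those other cells. In sevoflurane replicate 3 the sums were 723 and 710 CPM. GRIK4, a kainate receptor subunit of CA3, stood at 512, 432 and 531 CPM in the controls and at 487, 520 and 301 CPM after sevoflurane. NECTIN3, an adhesion protein, stood at 308, 257 and 421 CPM in the controls and at 302, 391 and 83.5 CPM after sevoflurane. The CA1 list did not set these cells apart in the same way, with sums of 563 to 1014 CPM against 406 to 850 CPM in the other glutamatergic cells of the 5 libraries. The sum of the cortical list was not lower in these cells, at 1729 to 2385 CPM against 1077 to 2208 CPM. In sub-cluster 1 described below, HS3ST4 made up most of that sum. Since the same transcripts placed a cell in one set or the other, no test was made between them.

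**Figure D2:**
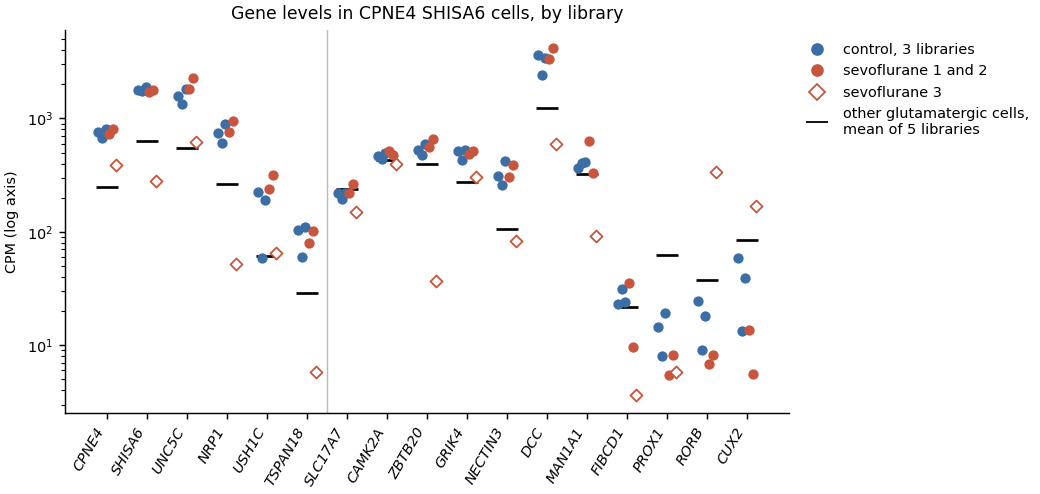
Levels of the selection genes and of marker genes in the CPNE4 SHISA6 cells, in CPM on a log axis, one point per library, with sevoflurane replicate 3 as an open diamond and a dash for the mean of the other glutamatergic cells over 5 libraries. ZBTB20, NRP1 and TSPAN18 are far lower and RORB far higher in the open diamond than in the other points.

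Outside the selection genes, the transcripts most raised over other glutamatergic cells belonged to signalling and adhesion families. DCC, the netrin receptor that pairs with UNC5 proteins, stood at 3620, 2394 and 3412 CPM in the controls and at 3359, 4208 and 599 CPM after sevoflurane. Over the 5 libraries DCC averaged 3399 ± 655 CPM (SD, n = 5) against 1237 ± 297 CPM in the other glutamatergic cells, a ratio of 2.75. LATS2, a kinase of the Hippo pathway, had the highest ratio of the 5 libraries at 4.55, with 56.8 to 90.4 CPM. TEAD1, the transcription factor at the end of the same pathway, stood at 477, 366 and 460 CPM in the controls and at 468, 627 and 97.3 CPM after sevoflurane, a ratio of 3.37. Also among the 15 highest ratios were EYA2 at 4.33, TRPS1 at 3.74, IGF1 at 3.38, NECTIN3 at 3.15 and the protein kinase C gene PRKCA at 2.80. EYA2 and IGF1 averaged 88.9 and 84.0 CPM here, below the 99.0 and 174 CPM of cells with at least 3 UMIs of GAD1 and GAD2. TRPS1, NECTIN3 and PRKCA were higher here than in those GABAergic cells. With all 6 libraries the list was led by TRPS1 at 3.52, TEAD1 at 3.21, AFF2 at 3.02 and NECTIN3 at 2.89, and it gained NETO1, an auxiliary subunit of kainate receptors, at 1.94. LATS2 left that list because it was at 3.63 CPM in sevoflurane replicate 3, below the 50 CPM asked of every library.

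The cells were of several kinds. Clustering them apart from all other barcodes gave 13 sub-clusters, which are called here by number and leading genes. Sub-cluster 1 was the largest, with 1317 cells or 34.2%, and was led by USH1C, CD36 and TNS3. Of the 13 it had the highest UNC5C at 2981 CPM, NRP1 at 1328 CPM, TSPAN18 at 167 CPM and USH1C at 441 CPM, with SHISA6 at 2499 CPM and CPNE4 at 993 CPM. Some CA3 markers were high there too, with GRIK4 at 809 CPM and NECTIN3 at 535 CPM. Others, BOK, IYD, PRSS35, COCH and PLAGL1, stood at 6.68 CPM or less there and at most at 21.7 CPM in any sub-cluster. The CA1 markers FIBCD1 and MPPED1 stood at 10.5 and 1.70 CPM, but MAN1A1 and GALNT16 of the same list at 316 and 95.1 CPM. Sub-cluster 2 held 797 cells and was led by PIEZO2, a mechanically gated channel, and the protease gene PRSS12. Several marker levels were the reverse there: MAN1A1 at 1050 CPM, MPPED1 at 116 CPM and FIBCD1 at 69.9 CPM, with GRIK4 at 213 CPM and TSPAN18 at 8.70 CPM. GALNT16, at 104 CPM, was similar in both.

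Of the smaller sub-clusters, some carried markers of other cells and some those of the hippocampus. Sub-cluster 3, with 300 cells and a median of 6368 UMIs, was led by PROX1, the transcription factor of dentate granule cells, at 181 CPM. Sub-cluster 4, with 250 cells, was led by RORB at 229 CPM and CUX2 at 321 CPM, both of upper-layer neocortex, and had ZBTB20 at 24.1 CPM. Sub-cluster 5, with 236 cells, was led by HTR2C, SLCO1C1 and the glial glutamate transporter gene SLC1A3, and Scrublet, which scores simulated pairs of cells, marked 36.4% of it as doublets against 5.85% of all the cells. Sub-cluster 6 (218 cells) was led by LGR6 and BOC and had the highest CPNE4 level, 1698 CPM, with ZBTB20 at 946 CPM and GRIK4 at 555 CPM. Sub-cluster 10 (93 cells), led by POSTN and ITGA2, had the highest SHISA6 level, 3938 CPM, with ZBTB20 at 818 CPM and NECTIN3 at 626 CPM. Sub-clusters 7 (187 cells, DPP10 and KIAA1217), 8 (185 cells, ADAMTSL1 and GFRA1), 9 (155 cells, ST18 and KIT), 11 (49 cells, GULP1 and THSD7A), 12 (44 cells, VGLL3 and ADGRV1) and 13 (18 cells, IL1RAPL2 and RELN) made up the rest. Among these, sub-clusters 7, 11 and 13 had ZBTB20 at 38.4, 47.3 and 3.90 CPM. TSHZ2, which is on both the cortical and the subiculum list, stood at 705, 1917 and 943 CPM in them. The rule thus joined cells with some CA3 markers, cells with some CA1 markers and smaller groups with dentate, neocortical or subiculum-list markers. It also kept sub-cluster 5, with its glial transcripts and high share of doublets.

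Libraries took very different shares from each sub-cluster. Sub-cluster 1 supplied 33.1%, 21.7% and 36.4% of the cells of the controls and 37.7%, 54.7% and 0% after sevoflurane. Sub-cluster 2 supplied 15.5%, 23.8% and 16.7% in the controls and 34.0%, 7.27% and 2.63% after sevoflurane. In sevoflurane replicate 3, 76.3% of the cells were in sub-cluster 4. Of the 155 cells of sub-cluster 9, 105 came from control replicate 2. Sub-clusters 12 and 13 had cells from controls alone. These sizes were not compared between the groups, because genes that lead the sub-clusters also differed in level between the libraries.

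**Figure D3:**
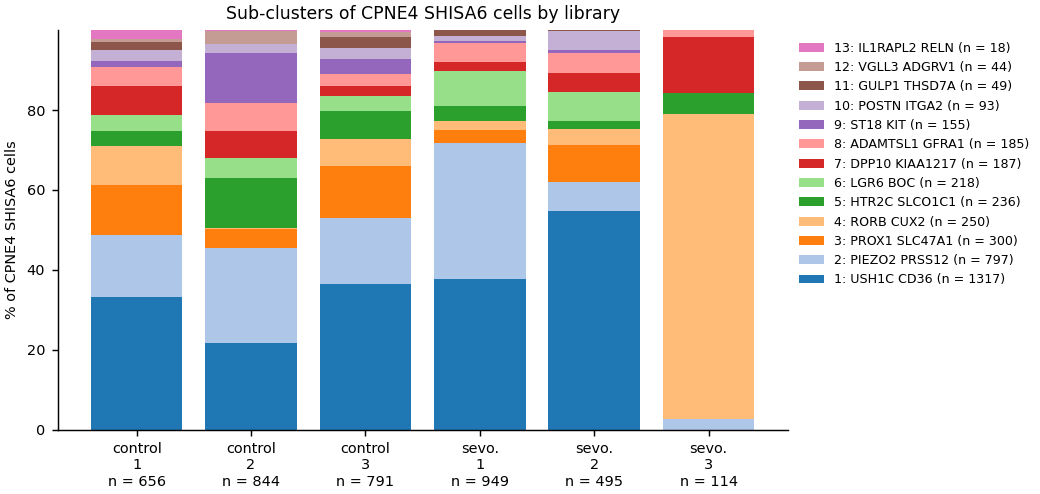
Percent of the CPNE4 SHISA6 cells of each library that fell in each sub-cluster. Sub-cluster 4 makes up 76.3% of sevoflurane replicate 3, and sub-cluster 1 makes up 54.7% of sevoflurane replicate 2.

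To ask what sevoflurane did in these neurons, UMIs were summed over the cells of each library and the 3 sevoflurane sums were compared with the 3 control sums by edgeR's quasi-likelihood test with Benjamini-Hochberg adjustment. No gene passed an adjusted p of 0.05 among 14431 tested (0.0%), and the lowest adjusted p was 0.179. At an unadjusted p under 0.05 stood 1027 genes (7.12%), of which 521 were lower (3.61%) and 506 higher (3.51%). DESeq2 on the same sums called 59 genes, 15 higher and 44 lower. With the 5 libraries, 0 of 14839 genes passed in edgeR (0.0%), the lowest adjusted p was 0.0562, and 1951 genes (13.1%) had an unadjusted p under 0.05, of which 1141 were lower (7.69%) and 810 higher (5.46%). DESeq2 called 311 genes there, 59 higher and 252 lower. In sub-cluster 1 alone, with 3 control and 2 sevoflurane libraries, edgeR called 0 of 11853 genes (0.0%), 1312 (11.1%) had an unadjusted p under 0.05, of which 762 were lower (6.43%) and 550 higher (4.64%), and DESeq2 called 150. Groups that did not overlap, in either direction, were found for 15.5% of the genes with 6 libraries, 31.6% with 5 and 30.2% in sub-cluster 1. These 3 comparisons use the same control libraries and are not independent. Below, log2 differences are sevoflurane minus control with their standard errors, and none passed edgeR's test unless a sentence says so.

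FKBP5, a co-chaperone that glucocorticoids induce and that the series title names for microglia, did not pass the test in these neurons. It stood at 56.0, 30.5 and 45.8 CPM in the controls and at 36.0, 44.5 and 39.2 CPM after sevoflurane. The sevoflurane values lay inside the control range when all the cells were summed. The log2 difference was -0.21 ± 0.23 with 6 libraries (edgeR, adjusted p = 0.868) and -0.18 ± 0.25 with 5 (adjusted p = 0.801). In sub-cluster 1, FKBP5 stood at 63.1, 44.6 and 54.6 CPM in the controls and at 42.4 and 41.8 CPM after sevoflurane, so that both sevoflurane values were below the 3 controls, with a log2 difference of -0.43 ± 0.17 (edgeR, adjusted p = 0.398). In the GABAergic cells of the same libraries, those with at least 3 UMIs of GAD1 and GAD2, FKBP5 stood at 24.3, 14.6 and 23.7 CPM in the controls and at 39.9, 33.0 and 37.4 CPM after sevoflurane. The response in the CPNE4 SHISA6 cells minus that in GABAergic cells was -0.95 on the log2 scale (limma, adjusted p = 0.659), and minus that in the other glutamatergic cells -0.50 (limma, adjusted p = 0.819). With every cell thinned to 3000 UMIs, an FKBP5 UMI was found in 13.1%, 8.65% and 12.1% of the cells in the controls and in 11.6%, 13.1% and 8.77% after sevoflurane, against 3.97% to 8.86% of the GABAergic cells. Without thinning the FKBP5 shares were 24.5% to 44.2% and 10.2% to 21.7%, at median depths of 10237 to 15326 and 6627 to 9139 UMIs.

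The receptors for glucocorticoids were read from the same cells. NR3C2, the mineralocorticoid receptor, which binds corticosteroids with high affinity and is abundant in the hippocampus, stood at 758, 896 and 870 CPM in the controls and at 890, 805 and 280 CPM after sevoflurane. NR3C1, the glucocorticoid receptor, stood at 112, 82.8 and 113 CPM in the controls and at 95.7, 85.6 and 298 CPM after sevoflurane. In sevoflurane replicate 3 alone the 2 receptors were at similar levels. Of 13 glucocorticoid-induced genes tested, 0 passed, 7 had a log2 difference above 0 and the median was 0.00 with 6 libraries, and 5 of 13 were above 0 with a median of -0.08 with 5. Across all genes tested, 52.2% were above 0 with 6 libraries (median 0.02) and 50.3% with 5 (median 0.00). KLF9, a transcription factor that corticosteroids induce, had no overlap between the groups, with 11.2, 10.7 and 9.48 CPM in the controls and 12.5, 16.4 and 13.1 CPM after sevoflurane (log2 difference 0.37 ± 0.18). PER2, a clock gene, had no overlap in the other direction, with 25.2, 29.7 and 29.4 CPM in the controls and 20.2, 17.4 and 8.72 CPM after sevoflurane (-0.82 ± 0.27).

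The immediate early genes FOS, EGR1, ARC and NPAS4, which neurons switch on within minutes of strong firing, stood at 1.37 CPM or less in every library. Of 7 immediate early genes that could be tested, 0 passed and 0 had a log2 difference above 0, with a median of -0.60. With 5 libraries 8 were tested, again 0 above 0, with a median of -0.52. DUSP5, a phosphatase that ERK signalling induces, stood at 11.8, 14.2 and 15.2 CPM in the controls and at 12.1, 7.95 and 3.63 CPM after sevoflurane (-0.69 ± 0.34 with 6 libraries, -0.48 ± 0.23 with 5). Of 16 heat shock and chaperone genes, 0 passed and 1 lay above 0 (median -0.32). With 5 libraries 2 lay above 0 (median -0.19), and in sub-cluster 1 it was 6 of 15 (median -0.06). Of 11 genes of the corticosteroid receptor complex, 0 passed and 1 lay above 0 with either set of libraries.

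The SHISA family and the other auxiliary subunits of AMPA receptors set receptor gating and place at the synapse. Of 17 such genes tested, 0 passed. With 6 libraries 7 were above 0 (median log2 difference -0.07), and with 5 libraries 5 were (median -0.18). SHISA9, a relative of SHISA6 also called CKAMP44, stood at 570, 661 and 590 CPM in the controls and at 354, 259 and 583 CPM after sevoflurane. Its first 2 sevoflurane values were below every control and the third was among the controls, and the log2 difference was -0.70 ± 0.26 with 6 libraries (edgeR, adjusted p = 0.657) and -1.03 ± 0.16 with 5 (adjusted p = 0.109). SHISA7, which also associates with GABAA receptors, stood at 27.7, 33.3 and 35.3 CPM in the controls and at 24.3, 25.7 and 21.8 CPM after sevoflurane (-0.47 ± 0.15 with 6 libraries). CACNG2 (stargazin) stood at 104, 98.9 and 105 CPM in the controls and at 60.7, 60.6 and 224 CPM after sevoflurane. Its log2 difference was -0.81 ± 0.10 with 5 libraries (edgeR, adjusted p = 0.0634) and 0.01 ± 0.47 with 6. The pore subunits GRIA1 and GRIA2 stood at 2265 to 2638 CPM and 1257 to 1429 CPM in the 5 libraries, with control and sevoflurane values interleaved. Of 9 AMPA and kainate receptor subunits, 0 passed (median -0.16 with 6 libraries, -0.08 with 5).

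Of the other transmitter receptors, GABAA receptors are a main target of sevoflurane. Of 12 of their subunit genes, 0 passed and 4 were above 0 with either set of libraries (median -0.10 with 6, -0.13 with 5). GABRB1, a beta subunit, stood at 1020, 1033 and 1114 CPM in the controls and at 822, 921 and 809 CPM after sevoflurane (-0.38 ± 0.12). All 3 sevoflurane values were below all 3 controls, as was true of 4.66% of all genes tested (the share with lower, non-overlapping values over 6 libraries).

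Netrin receptors and their partners, the family of UNC5C and DCC, were mostly below 0. Of 10 netrin pathway genes tested outside the selection, 0 passed and 2 were above 0 (median -0.29), and with 5 libraries 2 of 11 were (median -0.28). UNC5A stood at 95.1, 119 and 98.0 CPM in the controls and at 75.6, 65.3 and 71.2 CPM after sevoflurane, with no overlap (-0.63 ± 0.14, edgeR, adjusted p = 0.520 with 6 libraries, and -0.61 ± 0.14, adjusted p = 0.181 with 5). DCC itself had overlapping groups. Of 17 semaphorin and plexin genes, 0 passed and 3 were above 0 (median -0.33 with 6 libraries, -0.29 with 5). PLXNA4, a plexin that signals for NRP1, stood at 798, 858 and 922 CPM in the controls and at 750, 706 and 585 CPM after sevoflurane (-0.40 ± 0.15). SEMA6A, a membrane-bound semaphorin, stood at 13.3, 17.0 and 16.7 CPM in the controls and at 7.05, 7.58 and 16.7 CPM after sevoflurane, so that sevoflurane replicate 3 was again among the controls.

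Ephrin, slit and teneurin genes, which guide and match axons, were mostly below 0, with 8 of 24 above it (median -0.14) and 6 of 24 with 5 libraries (median -0.31). Of the 24 tested, 0 passed and 7 were lower in every sevoflurane library than in every control, against 4.66% of all genes. With 5 libraries 10 of 24 were, against 12.4% of all genes (19.2% were higher). SLIT2, a repellent of growing axons, stood at 557, 1001 and 844 CPM in the controls and at 437, 468 and 248 CPM after sevoflurane (-1.12 ± 0.31 with 6 libraries, -0.87 ± 0.22 with 5). TENM4, a teneurin that bridges synapses, stood at 649, 694 and 599 CPM in the controls and at 422, 476 and 529 CPM after sevoflurane (-0.52 ± 0.12 with 6 libraries, -0.58 ± 0.10 with 5). EPHB2, an ephrin receptor of excitatory synapses, stood at 89.2, 114 and 115 CPM in the controls and at 74.6, 83.2 and 78.4 CPM after sevoflurane (-0.50 ± 0.13).

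The copine family, to which CPNE4 belongs, did not move as one. Of 19 copine, tetraspanin and harmonin-complex genes, 0 passed, 10 were above 0 with 6 libraries (median 0.07) and 9 with 5 (median -0.09). CPNE2 stood at 47.2, 81.0 and 77.7 CPM in the controls and at 27.2, 28.8 and 20.3 CPM after sevoflurane. As CPNE2 was chosen among genes whose groups did not overlap, that separation is no result. Of all genes tested, 4.66% were lower without overlap over 6 libraries. Its log2 difference was -1.46 ± 0.24 with 6 libraries (edgeR, adjusted p = 0.416), -1.34 ± 0.23 with 5 (adjusted p = 0.128) and -1.38 ± 0.24 in sub-cluster 1. In the other glutamatergic cells CPNE2 stood at 20.0, 47.5 and 42.4 CPM in the controls and at 17.1, 14.8 and 18.0 CPM after sevoflurane, so its direction was shared.

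KCNB2 encodes a delayed-rectifier potassium channel of neurons. It stood at 398, 389 and 433 CPM in the controls and at 229, 206 and 187 CPM after sevoflurane. KCNB2 too was chosen among genes whose groups did not overlap (4.66% of all genes on the low side), so its separation is no result. The log2 difference was -1.04 ± 0.14 with 6 libraries (edgeR, adjusted p = 0.373), -0.95 ± 0.11 with 5 (adjusted p = 0.0634) and -0.77 ± 0.12 in sub-cluster 1. In the other glutamatergic cells KCNB2 stood at 649, 519 and 600 CPM in the controls and at 323, 291 and 194 CPM after sevoflurane. The potassium, HCN and leak channel list as a whole had 12 of 26 genes above 0 (median -0.08) and 0 passing, and 8 of 27 above 0 with 5 libraries (median -0.27). KCNK1, a leak channel, stood at 94.4, 116 and 102 CPM in the controls and at 79.6, 75.3 and 98.1 CPM after sevoflurane (-0.39 ± 0.13). Of 23 sodium and calcium channel genes, 0 passed (median -0.03 with 6 libraries, -0.10 with 5). CACNB2, a calcium channel beta subunit, stood at 1049, 1406 and 1278 CPM in the controls and at 947, 897 and 537 CPM after sevoflurane (-0.71 ± 0.25).

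Scaffold proteins of the postsynaptic density hold receptors at excitatory synapses. Of 26 postsynaptic and plasticity genes, 0 passed and 6 were above 0 (median -0.15). With 5 libraries 9 were (median -0.21), and in sub-cluster 1 it was 13 of 26 (median 0.01). SHANK1 stood at 94.0, 123 and 119 CPM in the controls and at 82.1, 80.6 and 69.7 CPM after sevoflurane (-0.59 ± 0.15). SHANK2 stood at 479, 598 and 536 CPM in the controls and at 395, 394 and 494 CPM after sevoflurane (-0.41 ± 0.14), which overlapped. HOMER1, which links SHANK proteins to metabotropic receptors, overlapped as well, with 222, 385 and 372 CPM in the controls and 236, 209 and 219 CPM after sevoflurane. Of 27 genes of vesicle release, 0 passed and 10 were above 0 (median -0.07), or 6 with 5 libraries (median -0.14). Of 12 respiratory chain genes, 8 were above 0 with 6 libraries (median 0.03) and 10 with 5 (median 0.09). Of 17 cholesterol synthesis genes, 15 were above 0 with 6 libraries (median 0.20) and 13 with 5 (median 0.11). The clock genes turned with the libraries used, from 8 of 15 above 0 (median 0.10) to 4 of 16 with 5 libraries (median -0.19) and 6 of 13 in sub-cluster 1 (median -0.13). None of these 3 lists had a gene that passed.

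**Figure D4:**
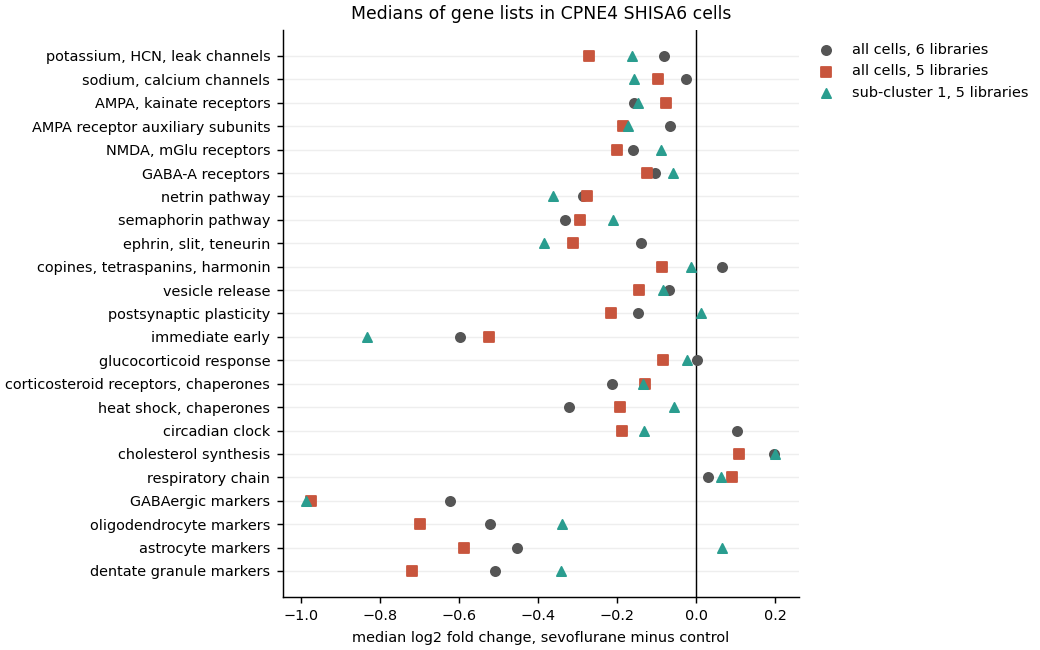
Median log2 difference (sevoflurane minus control) of each gene list in the CPNE4 SHISA6 cells with 6 libraries, with 5 libraries and in sub-cluster 1, with no test attached. Immediate early genes have medians of -0.60 and -0.52 with 6 and 5 libraries, and cholesterol synthesis genes of 0.20 and 0.11.

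Markers of other cell types were read in the same sums. The 12 GABAergic markers summed to 161, 248 and 257 CPM in the controls and to 129, 72.7 and 291 CPM after sevoflurane, against 8643 to 12480 CPM in the GABAergic cells themselves. That list includes GAD1 and GAD2, which the selection used, but ERBB4 alone stood at 32.8 to 203 CPM against 5471 to 8950 CPM. Of 6 GABAergic markers that could be tested, 0 were above 0, with medians of -0.62 with 6 libraries and -0.97 with 5. The oligodendrocyte markers, including the myelin gene MBP, summed to 219, 376 and 321 CPM in the controls and to 230, 129 and 262 CPM after sevoflurane, with 0 of 6 above 0 with either set of libraries. The astrocyte markers summed to 364, 271 and 520 CPM in the controls and to 278, 286 and 301 CPM after sevoflurane, with 1 of 8 above 0 with either set, but 4 of 7 in sub-cluster 1. Dentate granule markers had 1 of 7 above 0 (median -0.51), and 0 of 7 with 5 libraries (median -0.72). With either set of libraries, 0 of 4 endothelial and mural, 0 of 2 fibroblast and 2 of 6 microglia markers were above 0. Other lists turned with the libraries used: 4 of 6 oligodendrocyte precursor markers were above 0 with 6 libraries (median 0.20) and 1 of 6 with 5 (median -0.48), while 1 of 4 ependymal and choroid markers was above 0 with 6 libraries (median -0.06) and 4 of 4 with 5 (median 0.22). The part of these transcripts in the gene lists above was not tested.

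On the low side with 6 libraries, genes were chosen by smallest p among symbols with a minimum mean level and no overlap between groups. They were KCNB2, RELN, THSD7B, MTSS1, FNDC3B, KIF21B, CPNE2 and NEURL1B, with adjusted p from 0.373 upwards (edgeR). DESeq2 called all 8 of them with the same libraries, with adjusted p of 2.47e-05 for KCNB2, 3.2e-06 for RELN and 0.000549 for CPNE2. RELN encodes reelin, a secreted glycoprotein of Cajal-Retzius cells and interneurons. It stood at 45.2, 38.9 and 35.9 CPM in the controls and at 13.1, 6.09 and 9.44 CPM after sevoflurane, a log2 difference of -2.10 ± 0.29 (edgeR, adjusted p = 0.373). The sub-cluster with RELN among its leading genes, sub-cluster 13, had its 18 cells in the controls, with 14, 1 and 3 in replicates 1 to 3. In the GABAergic cells RELN stood at 725 to 993 CPM in the controls and at 331 to 671 CPM after sevoflurane. In sub-cluster 1, which has none of those 18 cells, RELN was at 3.62 to 8.11 CPM in the controls and at 3.03 and 1.71 CPM after sevoflurane. The part of those 18 cells in the difference was not tested. THSD7B is among the leading genes of sub-cluster 3, which supplied 12.5%, 4.62% and 12.9% of the cells in the controls and 3.27%, 9.29% and 0% after sevoflurane. The part of these shares in the THSD7B difference was not tested either. MTSS1, an actin-binding protein of dendrites, stood at 94.7, 120 and 104 CPM in the controls and at 58.6, 54.7 and 70.5 CPM after sevoflurane (-0.88 ± 0.14).

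On the high side the rule named AGBL3, CD46, IQUB, CC2D2B, PPAN, HPSE2, CD200R1 and CR1L, of which DESeq2 called the first 4 (adjusted p = 0.000248 for AGBL3). AGBL3, a carboxypeptidase that trims tubulin tails, stood at 10.2, 10.6 and 6.05 CPM in the controls and at 31.3, 24.7 and 58.8 CPM after sevoflurane, a log2 difference of 1.94 ± 0.35 (edgeR, adjusted p = 0.416). CD46, a membrane regulator of complement, stood at 37.6, 30.3 and 25.6 CPM in the controls and at 56.6, 58.9 and 66.1 CPM after sevoflurane (0.87 ± 0.16). CR1L, a relative of complement receptors, stood at 22.7, 24.5 and 14.8 CPM in the controls and at 43.9, 48.3 and 37.0 CPM after sevoflurane. CC2D2B stood at 24.2 to 33.4 CPM in the controls and at 53.3, 68.1 and 48.7 CPM after sevoflurane (0.98 ± 0.20). The choice took only genes whose groups did not overlap, so the lack of overlap in these 4 is no result. Of all genes tested, 10.9% had no overlap on the high side with 6 libraries.

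**Figure D5:**
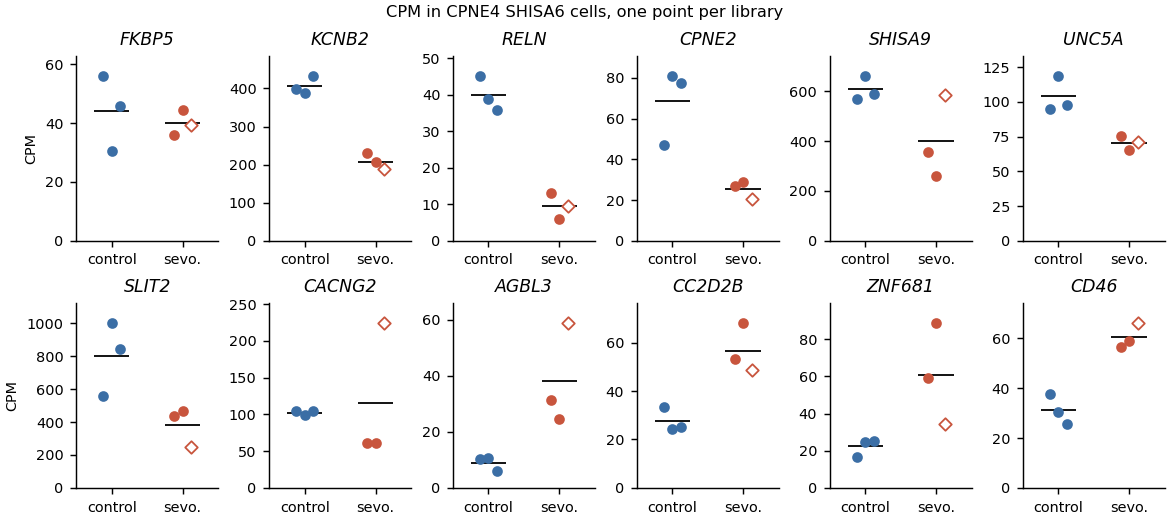
Levels of 12 genes in the CPNE4 SHISA6 cells, in CPM, one point per library, an open diamond for sevoflurane replicate 3 and a line at each group's mean over all its libraries. KCNB2, RELN and CPNE2, chosen among genes without overlap, lie lower in all 3 sevoflurane libraries. In SHISA9 and CACNG2 sevoflurane replicate 3 does not follow the other 2.

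Leaving out sevoflurane replicate 3 brought other genes to the fore. IGSF21, an adhesion protein of inhibitory synapses, stood at 66.2, 67.4 and 62.9 CPM in the controls, at 26.9 and 25.2 CPM in sevoflurane replicates 1 and 2, and at 124 CPM in replicate 3. Its log2 difference was -1.37 ± 0.11 with 5 libraries (edgeR, adjusted p = 0.0562) and -0.39 ± 0.56 with 6. VWC2L stood at 80.2, 79.1 and 79.8 CPM in the controls and at 38.8, 43.4 and 131 CPM after sevoflurane (-1.01 ± 0.10 with 5 libraries, edgeR, adjusted p = 0.0562). It was at 334, 534 and 479 CPM in sub-clusters 4, 7 and 13 and at 8.16 CPM in sub-cluster 1. Sub-cluster 4 made up 76.3% of sevoflurane replicate 3. The part of the sub-cluster shares in the VWC2L difference was not tested. PDE1C, a calmodulin-dependent phosphodiesterase, stood at 40.4, 44.9 and 42.5 CPM in the controls and at 15.6, 19.1 and 84.3 CPM after sevoflurane (-1.35 ± 0.14 with 5 libraries). GARNL3 and the sodium-calcium exchanger gene SLC8A3 had the same arrangement, low in the first 2 sevoflurane libraries and highest of all in the third. The group difference of these genes therefore rests on which sevoflurane libraries are used. DESeq2 called all 8 genes named on the low side from the 5 libraries and all 8 on the high side, and from the gene lists also SHISA9, UNC5A, SEMA6A, TENM4, SLIT2 and SHANK2, of which TENM4 alone was called with 6 libraries (adjusted p = 0.046). When the cells that Scrublet marked were also left out, 10 genes passed edgeR with 5 libraries, 9 lower and 1 higher, among them IGSF21, VWC2L, PDE1C, GARNL3, KCNB2 and RELN. On the high side of the 5 libraries, the zinc finger gene ZNF681 stood at 16.9, 24.7 and 25.5 CPM in the controls and at 59.3 and 88.7 CPM after sevoflurane (1.67 ± 0.22, edgeR, adjusted p = 0.0929). MAP7, a microtubule-binding protein, stood at 615, 488 and 595 CPM in the controls and at 873 and 958 CPM (0.64 ± 0.12). MAP7 is among the leading genes of sub-cluster 6. That sub-cluster supplied 3.81%, 5.21% and 3.67% of the cells in the controls and 8.75% and 7.47% in sevoflurane replicates 1 and 2. The part of these shares in the MAP7 difference was not tested.

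Within sub-cluster 1, which has no cell of sevoflurane replicate 3, 51.8% of all genes were above 0, 20.1% were higher and 10.2% lower without overlap, and several of the differences above had a similar size. KCNB2 stood at 278, 297 and 339 CPM in the controls and at 188 and 184 CPM after sevoflurane. EYA2, a transcriptional coactivator and phosphatase, is among the transcripts most raised over the other glutamatergic cells, though not over the GABAergic cells. It had the lowest adjusted p on the low side (-1.43 ± 0.19, edgeR, adjusted p = 0.0581). The phosphodiesterase gene PDE10A differed by -0.81 ± 0.11, the acid-sensing channel gene ASIC2 by -0.92 and NELL1 by -1.16. On the high side stood IQCK (1.36 ± 0.16), ADAMTSL1 (2.62 ± 0.41) and SEMA5A (1.38 ± 0.25). DESeq2 called all 8 genes that the rule named on each side here. ADAMTSL1 leads sub-cluster 8 and SEMA5A is on the dentate granule list. The GABAergic markers were low in this sub-cluster as well, with 0 of 4 above 0 (median -0.99).

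Whether the response was particular to the CPNE4 SHISA6 neurons was tested directly, as the difference of 2 differences within libraries. Against GABAergic cells, 0 of 12951 genes passed in limma (0.0%), with 772 (5.96%) at an unadjusted p under 0.05. The genes with the smallest p were FADS2, a fatty acid desaturase, at -0.98 ± 0.13 on the log2 scale, MRAP at -1.69, HSD11B1L at -1.13, HCRTR2, an orexin receptor, at 1.85 and ADGB at 1.00 (limma, adjusted p = 0.659 for each). Against the other glutamatergic cells, 0 of 14395 genes passed (0.0%), with 877 (6.09%) at an unadjusted p under 0.05. TSPEAR at 1.89, GNG4, a G protein gamma subunit, at 2.92, LRP10 at 0.89, NOS2 at -1.31 and GDPD3 at -1.23 had the smallest p (limma, adjusted p = 0.571 for each). Without sevoflurane replicate 3, limma again called 0 genes in both, with 1287 and 1644 at an unadjusted p under 0.05. No gene's response was thus shown to differ between these neurons and either comparison set.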

How the data were processed

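Single-cell RNA was measured in 6 libraries. The deposited files hold counts of UMIs per gene and barcode (29320 features). The authors used CASAVA 1.8, Cell Ranger and Seurat per the submitters' processing notes, and Cell Ranger 6.1.1 per the file headers. The genome build is not given in the sources used here. Gene symbols came with 15188 features, the name table named 1379 more, and 12753 stayed without a name.

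The cells and gene lists were chosen with earlier results of these data known. Counts were summed over the chosen cells per library, filtered with filterByExpr, scaled by TMM and tested with edgeR 4.0.16 (quasi-likelihood, adjusted p under 0.05), leaving out the 6 selection genes and GAD1, GAD2, LAMA3 and TRHR. DESeq2 1.42.0 was an alternative. Response differences were tested with limma 3.58.1 on log2 CPM (prior count 2). The fits were tested on simulated data. Doublets were scored with Scrublet (scanpy 1.11.5, threshold 0.190, the median of the libraries) and kept unless stated. Sub-clusters came from Leiden clustering (resolution 0.3, 2000 variable genes, 30 components, 15 neighbours). Clopper-Pearson intervals are at 95%. Named genes were FKBP5, up to 8 per direction, up to 3 per list, and the 15 highest ratios over other glutamatergic cells. The genes per direction had the smallest p among those with a symbol, a minimum mean level and no overlap between the groups. Some genes are not reported here.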

Additional observations from a re-analysis of the deposited data

How the results depend on the processing

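With edgeR, 0 genes passed with all 6 libraries, and 0 passed when any 1 library was left out. DESeq2 called 59 genes. Cells with at least 5 of the 6 selection genes gave 1 call, but sevoflurane replicate 3 has 10 such cells and drops out, so this is the same fit as with 5 libraries. With 5 libraries, DESeq2 called 311, no filter on low counts 502 (301 of the 311 among them), thinning to 3000 UMIs per cell 15, and leaving out Scrublet's doublets 10. Leaving out 1 more library gave 0 to 7 calls with 5 libraries (7 without sevoflurane replicate 1, 2 without replicate 2) and 0 to 14 in sub-cluster 1 (14 without sevoflurane replicate 1, 2 without control replicate 1), where DESeq2 called 150. A lone sevoflurane library is then assumed to vary like the controls. Response differences had 0 calls under each alternative run. The share of cells, 8.26%, became 4.78% with at least 5 selection genes, 7.70% with at least 5000 UMIs and 7.78% without doublets. The log2 difference of FKBP5 reversed after thinning, to 0.0718 (6 libraries) and 0.15 (5). When 1 library was left out it ran from -0.42 to 0.000529 (6 libraries) and from -0.38 to 0.0303 (5), above 0 without control replicate 1. Of 1195 alternative values of 101 gene results, 1100 kept direction and side of the threshold, 91 crossed to a pass and 4 reversed. None passed to begin with, so no pass could be lost. The cause was not tested. Replicate numbers did not pair the libraries (correlations of same-numbered deviations -0.14, -0.10 and -0.09), and the fit with the replicate block called 0 genes in each comparison (650 at an unadjusted p under 0.05 with 6 libraries). Sevoflurane replicate 3 rests on 114 cells and 1376774 UMIs, so low genes are least precise there. The comparisons with 5 libraries and in sub-cluster 1 were added after seeing the data.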

Other observations

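Choroid plexus transcripts were high in 1 library. TTR stood at 19.1 CPM in sevoflurane replicate 1 and at 0.497 to 0.726 CPM in the other 5, and HTR2C at 99.9 CPM there and at 9.19 to 15.1 CPM in the other 5. HTR2C, a serotonin receptor, and TTR, the thyroid hormone carrier of choroid epithelium, were the 2 genes called when sevoflurane replicate 2 was also left out of the 5 libraries, which leaves sevoflurane replicate 1 alone against the controls. Of the 10 genes called without Scrublet's doublets, 6 are named in the report, and KCNK13, a potassium leak channel gene, is a further one with a symbol, picked out after its value was seen. All 10 were also among the 311 genes that DESeq2 called with 5 libraries. Of the 15 genes called after thinning, 14 were among those 311, including AGBL3, CC2D2B, SHISA9, THSD7B and ZNF681.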
